A study of Bos taurus with 13 samples.

Results

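bta-miR-130a was followed in extracellular vesicles (EVs) of bovine follicular fluid, together with bta-miR-130b, its closest relative by name. Both were taken by name from the 311 miRNAs listed for any group, and both were listed in all 13 libraries. bta-miR-130a was chosen by its deposited values, which are high and differ between cow and heifer pools, so its levels are described here without a test. The working description also placed its highest level in transition cows at weeks 5-6, and the values below go against that detail. The other members of its seed family were taken by name only and were tested.

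The study asked how the energy balance of lactating dairy cows relates to EV-coupled miRNAs in the follicle. Holstein-Friesian cows were grouped after calving as transition cows (TCs), which passed from a negative to a positive energy balance, always negative cows (ANCs) and always positive cows (APCs), and heifers that had never lactated were the controls. TCs were sampled at weeks 5-6, labelled early negative (3 pools, 11 cows), and at weeks 9-10, labelled late positive (3 pools, 7 cows). ANCs and APCs were sampled at weeks 5-6 (2 pools from 2 cows each), and the heifers gave 3 pools from 8 animals. Large follicles were aspirated, so EVs of every cell type bordering or leaking into the fluid were read together. Which animals went into which pool, their ages and whether the TC animals were the same at both times are not given in the sources used here. With so few animals, p-values measure the spread between these pools only.

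A miRNA is a short RNA that guides a silencing complex to messenger RNAs, chiefly through its seed, the stretch near its 5′ end. miRNAs with the same seed can share targets, and miR-130a, miR-130b, miR-301a, miR-301b and miR-454 form one such family. miR-130a is known for lowering the homeobox factors GAX and HOXA5 in endothelial cells, which favours vessel growth, and the family is known for repressing PPARG, the main regulator of fat cell formation. In the follicle, granulosa cells line the fluid and a capillary bed lies outside their basement membrane, and EVs in the fluid carry RNA among these cells and the oocyte. Of the 5 family members, 4 were listed (bta-miR-130a, bta-miR-130b, bta-miR-301a and bta-miR-454) and bta-miR-301b was in no list. In the RefSeq gene table of assembly ARS-UCD2.0, MIR130A lay between LOC112441661 and YPEL4, MIR130B lay next to MIR301B, and MIR301A and MIR454 were neighbours within SKA2. The files were mapped to another assembly, so no coordinates are given.

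The 13 libraries held 145030 to 421435 recovered reads (median 327359), and 1 read was worth 2.64 to 6.32 CPM (reads scaled to a fixed library total) in the deposited values. The groups had been normalized by the authors in separate comparisons, so the values below are CPM on one scale set by TMM (trimmed mean of M values, which matches libraries on the bulk of their miRNAs) over all 13 libraries. At this depth bta-miR-130a rested on 496 to 10005 reads per pool. In EV pools, fewer vesicles of a cell type and less RNA per vesicle cannot be told apart.

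bta-miR-130a was abundant in every pool and varied 14.3-fold between the highest and the lowest. In TCs at weeks 5-6 it stood at 11395, 11174 and 28512 CPM in replicates 1 to 3. In TCs at weeks 9-10 it stood at 2668, 9851 and 5618 CPM. The 3 pools of the later time all lay below the 3 pools of the earlier time. In ANCs the values were 5800 and 15446 CPM, and in APCs 13741 and 33415 CPM. In heifers they were 2451, 2344 and 9127 CPM. Replicate 3 of the heifers was 3.81 times the mean of the other pair and overlapped with the cow values, whereas the other pair held the lowest values of the series.

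By group mean the order ran from APCs (23578 ± 13912 CPM, SD, n = 2) through TCs at weeks 5-6 (17027 ± 9947, n = 3), ANCs (10623 ± 6821, n = 2) and TCs at weeks 9-10 (6046 ± 3610, n = 3) to heifers (4641 ± 3885, n = 3). The highest mean was therefore that of the APCs and not that of the TCs at weeks 5-6. Each group overlapped with its neighbours in this order, with ratios of means of 1.38, 1.60, 1.76 and 1.30 from the top down. Values of APCs and heifers, at the 2 ends, did not overlap, and their means differed 5.08-fold. The order of the groups was the same with the deposited values and with total reads as the scale (3 of 3 scalings). Leaving out each of the 13 pools in turn, APCs had the highest mean in 12 cases, and TCs at weeks 5-6 did so without APC replicate 2, the pool with the highest value. Heifers had the lowest mean in 12 cases, and TCs at weeks 9-10 did so without their replicate 2.

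**Figure D1:**
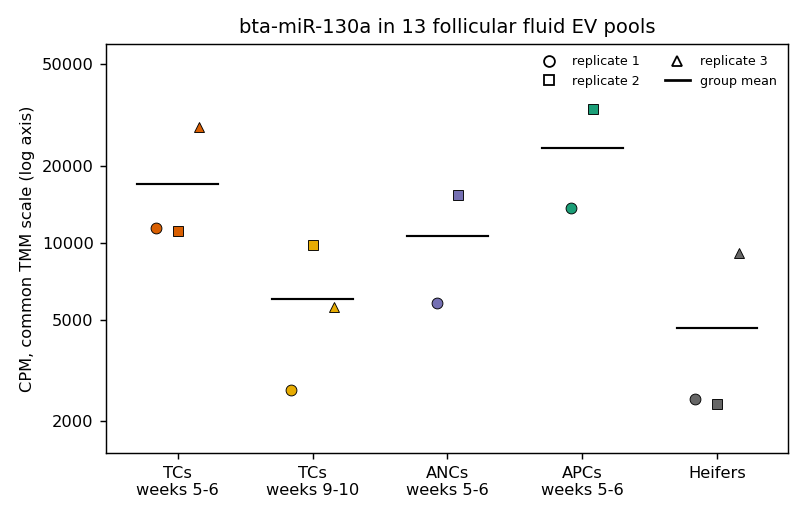
CPM of bta-miR-130a on the common TMM scale (log axis) in each of the 13 pools, by group, with symbols for the replicate number and bars at the group means. Both APC pools and all 3 pools of TCs at weeks 5-6 lie above the highest heifer pool at 9127 CPM, while TCs at weeks 9-10 and ANCs have pools on either side of it.

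Set against the heifers, 7 of the 10 cow pools lay above the highest heifer pool and 10 of 10 lay above the other pair. The 3 pools below heifer replicate 3 were replicates 1 and 3 of TCs at weeks 9-10 and replicate 1 of the ANCs. The cow pools averaged 13762 ± 9928 CPM (SD, n = 10, median 11284). On the log2(CPM + 5) scale, the equally weighted cow groups exceeded heifers by 1.60 (SE 0.54). Leaving out each pool in turn, this ranged from 1.28 without heifer replicate 2 to 2.23 without heifer replicate 3. The value over all pools was the second highest among the 247 miRNAs fitted, which describes the choice of bta-miR-130a and is no result about it.

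By group, the log2 difference from heifers was 2.03 (SE 0.62) in TCs at weeks 5-6, 0.54 (SE 0.62) in TCs at weeks 9-10, 1.43 (SE 0.71) in ANCs and 2.67 (SE 0.72) in APCs. With single pools left out, the difference of TCs at weeks 5-6 ranged from 1.64 (without their replicate 3) to 2.67 (without heifer replicate 3), and that of APCs from 2.07 (without their replicate 2) to 3.34 (without heifer replicate 3). The difference of TCs at weeks 9-10 was smaller than its standard error, and it ranged from 0.12 without their replicate 2 to 1.19 without heifer replicate 3. That of ANCs ranged from 0.69 without their replicate 2 to 2.21 without their replicate 1. Between cow groups, TCs at weeks 9-10 were below TCs at weeks 5-6 by a log2 difference of -1.52 (SE 0.54). ANCs differed from TCs at weeks 5-6 by -0.72 (SE 0.61), and APCs differed from them by 0.53 (SE 0.62). Without ANC replicate 1 the first of these became 0.08, and without APC replicate 2 the second became -0.12. ANCs differed from APCs by -1.14 (SE 0.69). These comparisons share heifer or TC pools and are not independent of each other.

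Values did not overlap in 3 of the 9 comparisons, namely TCs at weeks 5-6 and APCs against heifers and TCs at weeks 9-10 against weeks 5-6. In these, 7.39%, 19.3% and 6.70% of all miRNAs tested were apart in the same direction. These shares are printed as background only, since the same values led to the choice of bta-miR-130a. Among all 10 cow pools and 3 heifer pools, where bta-miR-130a did overlap, 4.45% of the 247 miRNAs did not.

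As a share of the reads of a library, which needs no scaling between libraries, bta-miR-130a ranged from 0.247% in heifer replicate 2 (95% Wilson interval 0.232 to 0.263%) to 2.37% in APC replicate 2 (2.33 to 2.42%). The intervals cover counting error only. The mean share was 1.80% in APCs, 1.51% in TCs at weeks 5-6, 1.12% in ANCs, 0.650% in TCs at weeks 9-10 and 0.498% in heifers. Ranked within each library by level, it held places from 12 in TCs at weeks 5-6 (replicate 3, of 285 miRNAs) to 63 in heifers (replicate 2, of 296).

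By the group mean of the deposited values it ranked 17 of 273 in APCs, between bta-miR-199a-3p (25178 CPM) and bta-let-7i (17350 CPM). In TCs at weeks 5-6 it ranked 18 of 285, between bta-miR-29a (17077 CPM) and bta-miR-24-3p (16110 CPM). bta-miR-24-3p was also the next below it in ANCs (10301 CPM), where bta-miR-148a stood next above (12484 CPM) and the rank was 23 of 273. In TCs at weeks 9-10 the rank was 36 of 282, with bta-miR-30d and bta-miR-342 as its neighbours. In heifers it ranked 40 of 296, next to bta-miR-202 (4818 CPM), a miRNA of the gonads, and bta-miR-151-3p (4563 CPM). By these group means it ranked higher in lactating cows at weeks 5-6 than in heifers, but the ranks of single pools overlapped. Heifer replicate 3 ranked 24 of 296, beside 25 and 24 of 285 in replicates 1 and 2 of TCs at weeks 5-6. ANC replicate 1 ranked 37 of 273.

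Values that moved with bta-miR-130a were looked up for each library. Its log2 level had a Pearson r of 0.17 with the log2 number of recovered reads over the 13 pools and of -0.81 with the TMM factor of the library. The pools with its highest levels, APC replicate 2 and replicate 3 of TCs at weeks 5-6, had the lowest TMM factors (0.711 and 0.803, against 0.891 to 1.205 in the others). A low factor raises every CPM of a library. With total reads in place of TMM, the log2 differences from heifers were 1.82, 0.54, 1.35 and 2.08 in TCs at weeks 5-6, TCs at weeks 9-10, ANCs and APCs. The part of library composition in the remaining differences was not tested.

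The study's RNA was measured on 2 days, with replicate 1 of each group on day 1 and the other replicates on day 2, except that APC replicate 2 has no day in the sources used here. On day 1, bta-miR-130a differed from the heifer pool of that day by 2.22, 0.12, 1.24 and 2.49 (log2) in TCs at weeks 5-6, TCs at weeks 9-10, ANCs and APCs, with 1 pool in each group. On day 2 it differed by 1.94, 0.68 and 1.74 in the first 3 of these groups. The differences of a day share the same heifer pools. Day 1 holds 1 pool of each group, so no test within it was possible.

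bta-miR-130b was listed at lower levels and showed a narrower range, from 317 to 1222 CPM (80 to 366 reads per pool). It stood at 894, 637 and 1161 CPM in TCs at weeks 5-6 and at 418, 1115 and 473 CPM in TCs at weeks 9-10. The ANC pools had 317 and 924 CPM, and the APC pools 559 and 1222 CPM. The heifer pools had 870, 457 and 531 CPM, and every cow group had a pool inside the heifer range or pools on both sides of it. The group means lay between 619 ± 220 CPM in heifers (SD, n = 3) and 897 ± 262 CPM in TCs at weeks 5-6 (SD, n = 3).

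bta-miR-130b differed between cows and heifers by no more than its error. With limma, the equally weighted cow groups minus heifers gave a log2 difference of 0.23 (SE 0.41, 95% interval -0.68 to 1.13, limma adjusted p = 0.762). An exact two-sided permutation test of the 10 cow pools against the 3 heifer pools gave p = 0.573 (adjusted p = 0.671 over 3 members tested), where the smallest p the design allows is 0.007. This test weights pools and not groups equally. It treats the cow pools as exchangeable, although they come from different groups and the TC times may share animals. Calls needed a log2 difference of 1 or more in either direction, p below 0.05 and an adjusted p no higher than 0.25, and 8.10% of the 247 miRNAs were called in this comparison. The upper end of the interval lies above the call size.

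Group by group, bta-miR-130b exceeded heifers by 0.54 in TCs at weeks 5-6 (SE 0.35, limma adjusted p = 0.429) and by 0.62 in APCs (SE 0.46, limma adjusted p = 0.521). The differences of TCs at weeks 9-10 and ANCs were 0.07 (SE 0.43, limma adjusted p = 0.980) and -0.05 (SE 0.54, limma adjusted p = 0.944). None was called, where 6.96%, 12.4%, 0% and 18.6% of all miRNAs were called in TCs at weeks 5-6, APCs, TCs at weeks 9-10 and ANCs against heifers. In the first of these the replicate numbers went together across the groups, although no source used here pairs cow pools with heifer pools. With the replicate numbers as a block 29 miRNAs were called instead of 16, bta-miR-130b again not among them. For TCs at weeks 9-10, limma and edgeR called 0 miRNAs, 24 had an unadjusted limma p under 0.05, and DESeq2 called 12.

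Between cow groups, bta-miR-130b had log2 differences of -0.51 for TCs at weeks 9-10 against weeks 5-6, -0.70 for ANCs and -0.02 for APCs against TCs at weeks 5-6, and -0.57 for ANCs against APCs (limma adjusted p from 0.693 to 0.997). No miRNA at all was called by limma or edgeR in these 4 comparisons (0% each), with 12, 18, 6 and 17 at an unadjusted limma p under 0.05 and 8, 0, 1 and 4 called by DESeq2. The 2 days of RNA measurement gave unlike signs. On day 1, bta-miR-130b differed from the heifer pool by -1.44 to 0.04 (log2) in the 4 cow groups, and on day 2 it differed by 0.55 to 0.90 in the 3 groups with a day. The day 1 differences all rest on heifer replicate 1, the highest heifer pool (870 CPM, against 457 and 531 CPM), so their signs are tied to that pool. APC replicate 2 (1222 CPM) enters the pooled difference of bta-miR-130b but belongs to neither day here.

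bta-miR-301a, the next family member, was scarcer (10 to 60 reads per pool). It stood at 85.7, 99.6 and 72.1 CPM in TCs at weeks 5-6 and at 143, 61.0 and 158 CPM in TCs at weeks 9-10. ANC pools had 155 and 87.0 CPM, APC pools 103 and 33.4 CPM, and heifer pools 143, 120 and 154 CPM. Its lowest value was in APC replicate 2, the pool with the highest bta-miR-130a. The pools of TCs at weeks 5-6 and of APCs all lay below the heifer pools, as did 14.8% and 16.7% of all miRNAs tested.

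The log2 differences of bta-miR-301a from heifers were -0.67 in TCs at weeks 5-6 (SE 0.30, limma adjusted p = 0.285), -1.0 in APCs (SE 0.52, limma adjusted p = 0.404), -0.25 in TCs at weeks 9-10 (SE 0.43, limma adjusted p = 0.889) and -0.16 in ANCs (SE 0.40, limma adjusted p = 0.795). Over all cow groups the difference was -0.59 (SE 0.38, limma adjusted p = 0.397), and the exact permutation test, again two-sided over 10 and 3 pools, gave p = 0.133 (adjusted p = 0.399 over 3 members). None of these was called. The APC difference was called with total reads as the scale (-1.54, limma adjusted p = 0.123), with the deposited values (-1.34, limma adjusted p = 0.188) and without APC replicate 1 (-1.80, limma adjusted p = 0.126). Without APC replicate 2 it was -0.22 (limma adjusted p = 0.785), so its size rested on that pool. The 4 comparisons between cow groups gave -0.43 to 0.94, none called.

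bta-miR-454 was near the detection limit, with 3 to 13 reads per pool and 10.8 to 60.3 CPM. It passed the filter on low values in 4 of the 9 comparisons, and none of these was called. Its log2 difference was -0.07 (SE 0.32, limma adjusted p = 0.918) for all cow groups and 0.27 (SE 0.40, limma adjusted p = 0.776) for APCs against heifers. The 95% interval of the latter ran from -0.69 to 1.22. Taken by name, the 3 relatives gave 22 tests, of which limma, edgeR and DESeq2 each called 0. By comparison, limma called 0% to 18.6% of all miRNAs. DESeq2 gave no adjusted p, and so could make no call, for bta-miR-130b and bta-miR-301a between the 2 TC times. The same held for bta-miR-454 in TCs at weeks 9-10 and in APCs against heifers. Of the 22 tests, 0 had an unadjusted limma p under 0.05 (lowest 0.0571).

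**Figure D2:**
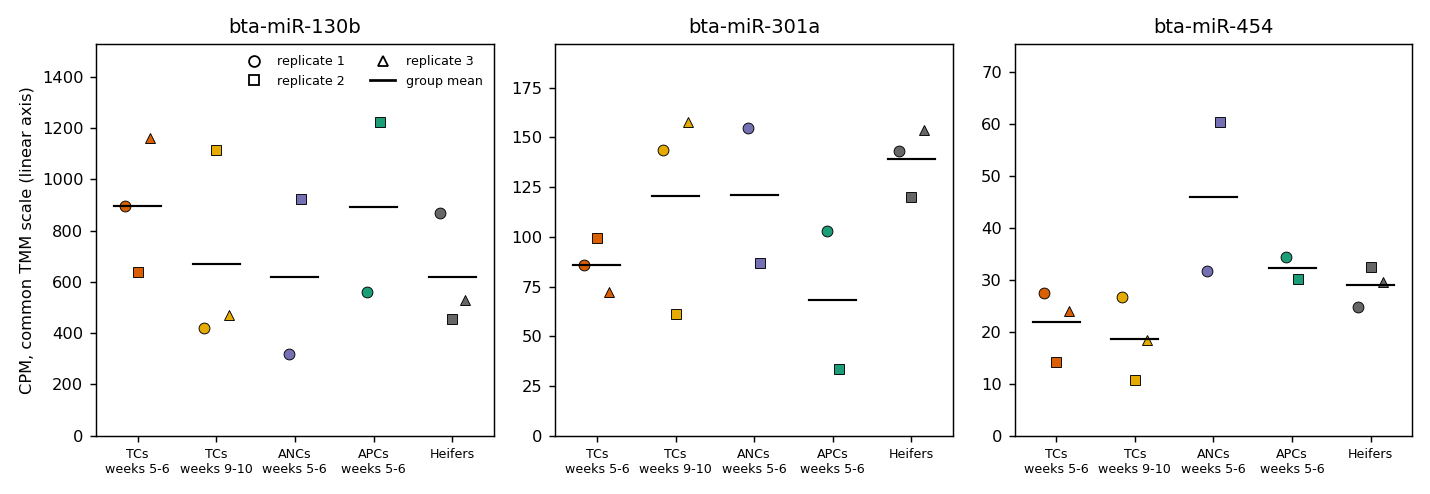
CPM of bta-miR-130b, bta-miR-301a and bta-miR-454 on the common TMM scale (linear axes from 0, a different range in each panel) in the 13 pools, with bars at the group means. bta-miR-130b pools of cows lie on both sides of the heifer pools (457 to 870 CPM), and bta-miR-301a is below all heifer pools in TCs at weeks 5-6 and in APCs.

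**Figure D3:**
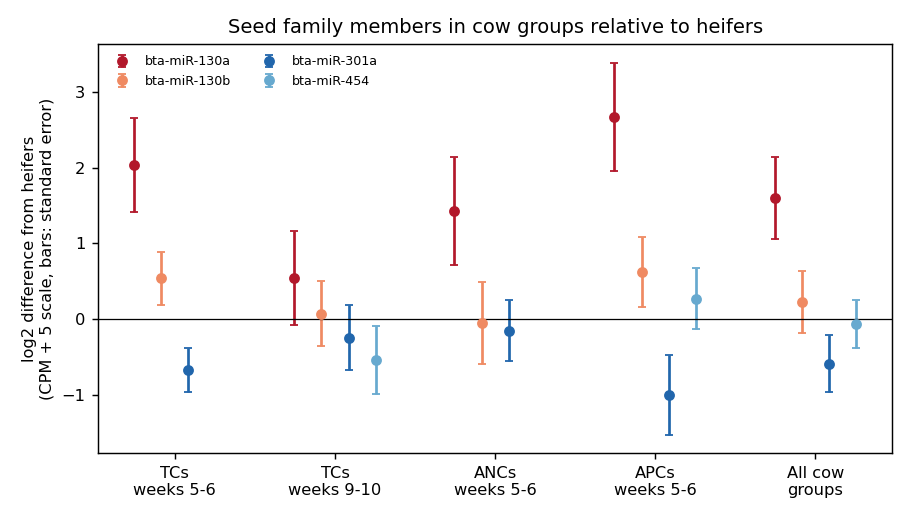
Log2 difference from heifers on the CPM + 5 scale for the listed family members in each cow group and in the equally weighted cow groups, with bars of 1 standard error. bta-miR-454 is shown for TCs at weeks 9-10, APCs and all cow groups, where it passed the filter. bta-miR-130a, which was chosen for these values, is above 0 throughout (0.54 to 2.67), while bta-miR-301a is below 0 throughout (-1.0 to -0.16), and no relative was called.

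The make-up of the family within a library was read from ratios of reads, which depend neither on depth nor on scaling. In every pool bta-miR-130a was the most abundant member. For each read of bta-miR-130b there were 12.7, 17.5 and 24.6 reads of bta-miR-130a in TCs at weeks 5-6 and 6.38, 8.83 and 11.9 in TCs at weeks 9-10. ANCs had 18.3 and 16.7, and APCs 24.6 and 27.3. Heifers had 2.82, 5.13 and 17.2, so that 2 of the 3 heifer pools held the lowest ratios of the series and replicate 3 sat among the cow pools. The ratios of the ANC pools and of the APC pools lay closer together than their CPM values, with means of 17.5 ± 1.12 and 26.0 ± 1.96 (SD, n = 2 each). The 2 TC times did not overlap. As bta-miR-130a is part of the ratio, these values are a description with no test.

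Against bta-miR-301a the ratio spanned from 17.1 in heifer replicate 1 to 1000.5 in APC replicate 2, where it rested on 10 reads of bta-miR-301a. Its range was 112 to 395 in TCs at weeks 5-6, 18.6 to 162 in TCs at weeks 9-10, 37.5 to 177 in ANCs and 17.1 to 59.4 in heifers. Both APC pools (134 and 1000.5) and all 3 pools of TCs at weeks 5-6 exceeded every heifer pool.

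**Figure D4:**
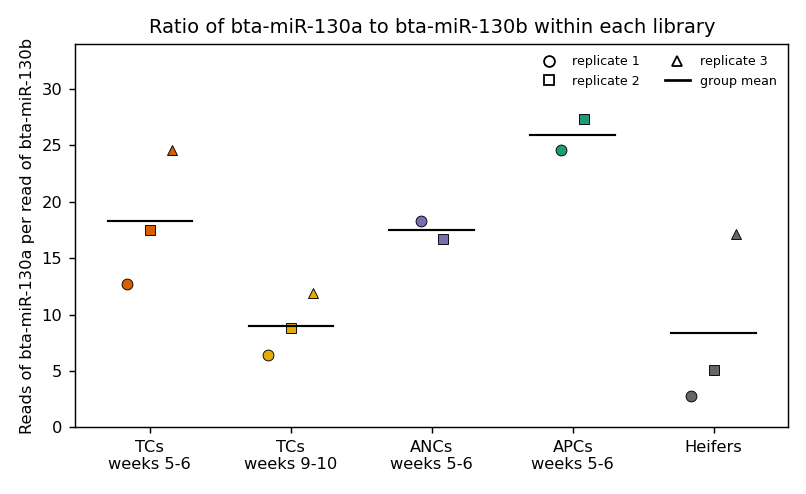
Reads of bta-miR-130a per read of bta-miR-130b in each of the 13 libraries, by group, with bars at the group means. The ratio is between 24.6 and 27.3 in APCs, between 6.38 and 11.9 in TCs at weeks 9-10, and spans 2.82 to 17.2 in heifers.

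The miRNAs whose levels ran most like bta-miR-130a were found by Pearson r on log2(CPM + 5) over the 13 pools. The search covered 246 other miRNAs, those listed for every group that passed the filter on low values. The pools share the scaling, so these are descriptions without a p. The 5 highest were bta-miR-320a (r = 0.930), bta-miR-361 (0.930), bta-miR-2284x (0.920), bta-miR-1839 (0.911) and bta-miR-23b-3p (0.893). Over all 246 the median r was -0.0855, and 18 exceeded 0.8. After removal of the group means, the same 5 had r of 0.847, 0.944, 0.834, 0.801 and 0.835. These r reuse the pools by which the 5 were picked, so they describe that choice and are no further result.

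bta-miR-320a, made from its hairpin without the usual nuclear cleavage by Drosha, was among the most abundant of these. Its mean was 147189 CPM in APCs (135543 and 158836), 100383 CPM in TCs at weeks 5-6, 68334 CPM in ANCs, 35655 CPM in TCs at weeks 9-10 and 34335 CPM in heifers (20177 to 54422). This is the same order of groups as for bta-miR-130a. bta-miR-23b-3p, a miRNA of endothelial and other cells, had 38060 CPM in APCs and 7975 CPM in heifers, with TCs at weeks 9-10 at 7380 CPM, below the heifers. In all 5, heifer replicate 3 was the highest of the heifer pools, as it was for bta-miR-130a. As the 5 were picked for their likeness over these pools, such shared orders are part of the choice.

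The lowest r were those of bta-let-7g (-0.917), bta-miR-16b (-0.888) and bta-miR-425-3p (-0.879). bta-let-7g, of the let-7 family that marks differentiated cells, averaged 6356 CPM in heifers and 3044 CPM in TCs at weeks 5-6. bta-miR-16b, a miRNA abundant in many cells, averaged 64249 CPM in heifers, 63283 CPM in TCs at weeks 9-10 and 26502 to 47199 CPM in the APC pools. Of the family, bta-miR-130b had r = 0.629 (place 36 of 246), bta-miR-454 had 0.075 and bta-miR-301a had -0.747 (place 228). With total reads as the scale, bta-miR-320a stayed first at 0.905 and bta-let-7g last at -0.937.

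**Figure D5:**
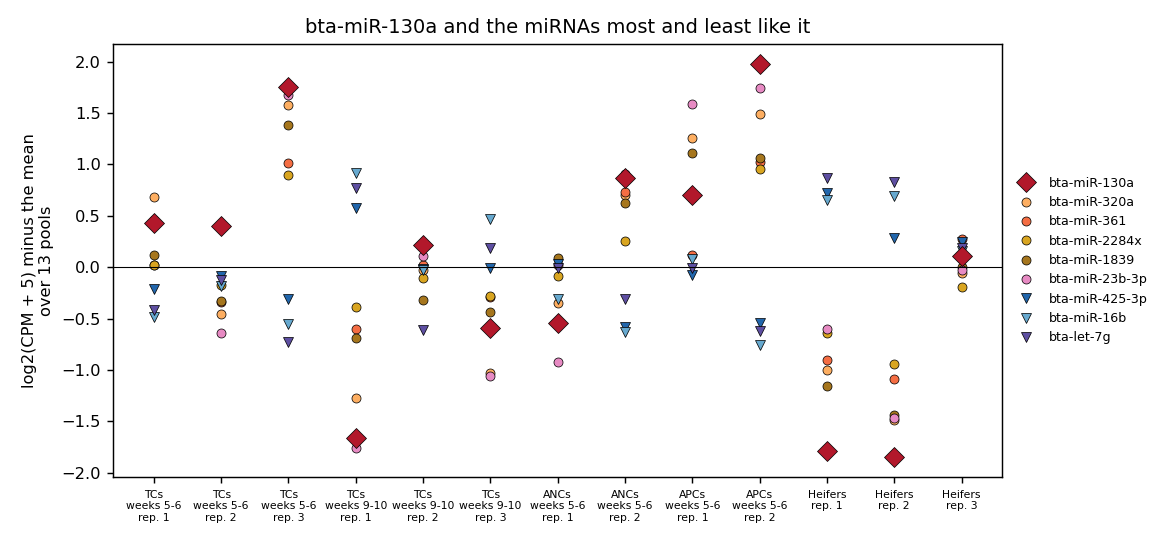
Log2(CPM + 5) minus the mean over 13 pools for bta-miR-130a (large diamonds), the 5 miRNAs most like it (circles) and the 3 least like it (triangles), in each pool. In APC replicate 2 and replicate 3 of TCs at weeks 5-6 bta-miR-130a and its look-alikes are high and the others low, and in heifer replicates 1 and 2 the reverse is seen.

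Markers of other cells were read beside bta-miR-130a. The leukocyte list (bta-miR-223, bta-miR-142-5p, bta-miR-142-3p, bta-miR-150, bta-miR-155 and bta-miR-146a) was read in every pool. Its summed level was 4868 to 6077 CPM in heifers, 2762 to 3063 CPM in TCs at weeks 5-6, 1573 to 4820 CPM in TCs at weeks 9-10, 745 to 1580 CPM in ANCs and 2144 to 3971 CPM in APCs, and none of the 6 was at 0 in any pool. In the equally weighted cow groups against heifers 5 of 6 were called lower (6.07% of all miRNAs tested), bta-miR-223 of granulocytes by -1.95 (SE 0.42, limma adjusted p = 0.0763). By group, 5 of the 5 tested were called lower in ANCs, 3 of 5 in TCs at weeks 5-6 and 0 of 5 in TCs at weeks 9-10 and in APCs. Of all miRNAs tested, 26 of 215 were called lower in ANCs and 12 of 230 in TCs at weeks 5-6. In TCs at weeks 9-10 these were 0 of 227, and in APCs 7 of 233. The median log2 difference of the list was -1.44 in TCs at weeks 9-10 and -1.05 in TCs at weeks 5-6. The liver miRNA bta-miR-122 was also called lower in the equally weighted cow groups, by -2.16 (SE 0.68, limma adjusted p = 0.139). Over the 13 pools, the summed leukocyte level had an r of -0.06 with bta-miR-130a and bta-miR-122 one of -0.20. After removal of the group means, the 6 leukocyte members had r of 0.204 to 0.776 with it and bta-miR-122 one of 0.265 (median over all 246 miRNAs 0.0675). Their part in the difference of bta-miR-130a was not tested.

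The erythrocyte list (bta-miR-451, bta-miR-486 and bta-miR-144) ranged from 131 CPM in an ANC pool to 10962 CPM in a pool of TCs at weeks 9-10 and from 1717 to 3958 CPM in heifers. bta-miR-451 was at 0 in ANC replicate 1, and bta-miR-144 was not in the list of every group. Of its 2 members tested, 0 were called in the equally weighted cow groups against heifers (8.10% of all miRNAs) and both were called lower in ANCs (12.1% of all miRNAs). Its r with bta-miR-130a was 0.09. The endothelial pair bta-miR-126-3p and bta-miR-126-5p summed to 930 to 2715 CPM in cows and 1059 to 1764 CPM in heifers. In every comparison 0 of 2 were called, where 0% to 18.6% of all miRNAs were called. With so small a share, 0 of 2 says little about the pair. Its r with bta-miR-130a was -0.03. The gonadal and granulosa list (bta-miR-202, bta-miR-424-5p, bta-miR-503-5p and bta-miR-542-5p) was read in every pool, at 4168 to 10023 CPM in cows and 4396 to 7776 CPM in heifers. Both ANC pools (9571 and 10023 CPM) lay above every heifer pool. In ANCs 2 of 4 were called higher, bta-miR-424-5p by 1.66 (SE 0.38, limma adjusted p = 0.0749) and bta-miR-542-5p by 1.37 (SE 0.39, limma adjusted p = 0.107). Of all 215 miRNAs tested in ANCs, 14 were called higher, and 18.6% were called in either direction. The other members were not called and went opposite ways. bta-miR-202, the largest part of the sum, differed by 0.77 (SE 0.39, 7515 against 4818 CPM in heifers). bta-miR-503-5p differed by -1.07 (SE 0.53, 121 against 288 CPM in heifers). In TCs at weeks 5-6, TCs at weeks 9-10 and APCs against heifers 0 of 4 were called, beside 6.96%, 0% and 12.4% of all miRNAs. The summed list had an r of 0.12 with bta-miR-130a.

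Other miRNAs known from vessel growth or from lipid and fat cell metabolism were counted from 2 lists. The lists go by topic and do not sort members by the direction in which they act. Of 16 miRNAs of vessel growth, 0 were called higher and 1 lower in the equally weighted cow groups against heifers (2.02% and 6.07% of all miRNAs tested), with a median log2 difference of 0.28 against -0.03 over all miRNAs tested. The one called was bta-miR-18a of the miR-17-92 cluster, lower by -1.40 (SE 0.47, limma adjusted p = 0.139). In APCs against heifers 3 of 16 rose and 0 fell (9.44% of all miRNAs rose), with a median of 0.20 against 0.03, bta-miR-23b-3p among them (2.52, SE 0.48, limma adjusted p = 0.0568). bta-miR-132, which acts in activated endothelium, was called lower in ANCs (-3.61, SE 1.14, limma adjusted p = 0.128), as were 3 others of the list (12.1% of all miRNAs fell), while 1 rose.

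Of 12 miRNAs of lipid and fat cell metabolism, 11 were listed and 10 tested. In the equally weighted cow groups against heifers 0 rose and 1, bta-miR-122, fell (2.02% and 6.07% of all miRNAs), and the list median was 0.30, against -0.03 over all miRNAs. In APCs 2 rose and 0 fell (9.44% of all miRNAs rose), with a median of 0.51 against 0.03. They were bta-miR-107 (2.41, SE 0.49, limma adjusted p = 0.0568) and bta-miR-103 (2.16, SE 0.48, limma adjusted p = 0.0568), which share a seed and are known for dampening insulin sensitivity. In TCs at weeks 5-6 neither was called. There bta-miR-107 averaged 31399 CPM, against 45406 CPM in APCs and 10068 CPM in heifers, and bta-miR-103 averaged 31834 CPM, against 44612 CPM in APCs and 11656 CPM in heifers.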

How the data were processed

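The deposited values are TMM-normalized CPM, recorded here as a signal. The authors trimmed reads with cutadapt 1.11, mapped them with Bowtie2 2.2.2 to UMD3.1, annotated them with miRBase release 20 and normalized them with edgeR. EVs were isolated by ultracentrifugation and libraries prepared with the QIAseq miRNA kit. Each library's values were whole multiples of 1 step, from which reads were recovered (3681 of 3681 values within 0.1 of a whole read). Members and lists were chosen with earlier results of these data known. Reads were scaled by TMM (edgeR 4.0.16), filtered with filterByExpr (minimum count 10, total 15) and tested with limma 3.58.1 (trend, log2(CPM + 5), Benjamini-Hochberg adjustment) on the 2 groups compared. Cows against heifers used 5 groups and the miRNAs listed for all of them. edgeR's quasi-likelihood test and DESeq2 1.42.0 on recovered reads, other scalings, pseudocounts, filters, a replicate block, the day of RNA measurement and each pool left out were alternatives. In TCs at weeks 5-6 and heifers, same-numbered pools deviated together (r = 0.188, 0.372 and 0.371). These groups hold different animals and no source used here pairs their pools, so the replicate block stayed an alternative. Named were the seed family, the 5 miRNAs most and 3 least like bta-miR-130a, its neighbours in rank, and up to 4 per list by comparisons called. Scripts were tested on simulated data. A list of offset seeds was not used here.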

Additional observations from a re-analysis of the deposited data

Results flagged for a closer look

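Among the 10 cow pools, bta-miR-454 in ANC replicate 2 stood apart from the others. It had 60.3 CPM from 9 reads, and its gap to the next pool was 0.524 of the whole range, above the 95% critical value of Dixon's test for 10 samples. The next highest cow pool was APC replicate 1 at 34.3 CPM from 10 reads. Chance sets about 1 in 20 such groups apart for a single miRNA. The rule was run on all 4 listed family members, so a flag in any of them is likelier than that. The pools also come from different cow groups, and ANC replicate 2 had the fewest recovered reads (145030).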

How the results depend on the processing

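bta-miR-130a kept the sign of its difference from heifers under all alternatives, while its difference between cow groups at weeks 5-6 changed sign without ANC replicate 1 or APC replicate 2. bta-miR-130b was not called under any of its 150 alternatives, but its sign was not stable. Between the 2 TC times DESeq2 gave it no adjusted p and so could not call it. Against heifers, the ANC difference was 0.13 with edgeR, 0.14 with DESeq2 and 0 with the day as covariate, and APCs against TCs at weeks 5-6 gave 0.05 with both tools. Leaving out single pools, bta-miR-130b ranged from -0.34 to 0.32 (TCs at weeks 9-10 against heifers), -0.85 to 0.80 (ANCs against heifers), -0.59 to 0.55 (APCs against TCs at weeks 5-6), -1.54 to 0.16 (ANCs against TCs at weeks 5-6) and -1.35 to 0.21 (ANCs against APCs). bta-miR-301a ranged from -0.48 to 0.21 (ANCs) and -0.52 to 0.19 (TCs at weeks 9-10) against heifers and from -1.16 to 0.30 (APCs against TCs at weeks 5-6). bta-miR-454 ranged from -0.17 to 0.07 for all cows, and for APCs against heifers was -0.23 with total reads and -0.03 with deposited values. The cause was not tested.

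With the replicate number as a block, bta-miR-130b differed from heifers by 0.54 in TCs at weeks 5-6 and APCs differed from TCs at weeks 5-6 by 0.17, and no call of a family member changed. Outside TCs at weeks 5-6 and heifers, same-numbered pools all deviated together only in ANCs against APCs (r = 0.255). With 2 pools in each of these groups the deviations mirror each other, so both replicates give the same r. Replicate 1 of each group was measured on day 1 and the others with a known day on day 2. The block called 29 miRNAs for TCs at weeks 5-6 against heifers. It called 7, 65 and 41 for TCs at weeks 9-10, ANCs and APCs against heifers. For ANCs against TCs at weeks 5-6 and against APCs it called 2 and 28.

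Counts of miRNAs called depended on the setting. Against heifers, total reads gave 26 (TCs at weeks 5-6), 6 (TCs at weeks 9-10) and 63 (APCs), deposited values 49 (APCs), DESeq2 30 (TCs at weeks 5-6) and 12 (TCs at weeks 9-10), the day as covariate 0 (TCs at weeks 5-6), and 1 fit of all libraries 4 (TCs at weeks 9-10). Between cow groups DESeq2 gave 8 (TC times), 1 (APCs and TCs) and 4 (ANCs and APCs). Leaving out single pools gave 0 to 46 for TCs at weeks 5-6, 0 to 25 for TCs at weeks 9-10, 0 to 54 for ANCs, 3 to 48 for APCs and 0 to 35 for all cows against heifers, and 0 to 22, 0 to 7, 0 to 4 and 0 to 36 between TC times, ANCs and TCs, APCs and TCs, and ANCs and APCs. Depth limits bta-miR-454 and bta-miR-301a most.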
